A study of Rattus norvegicus with 9 samples.

Results

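Rat stromal cells that had spent 7 days in the fat of a mouse were compared with cells of the same starting passage that stayed in the incubator until the same time point. The comparison takes 6 of the 9 libraries of the study, 3 against 3, and all 12364 genes with enough counts to be tested. The cells are adipose-derived stromal cells (ADSCs), the plastic-adherent mesenchymal fraction of fat, obtained by collagenase digestion of subcutaneous inguinal adipose tissue of GFP-transgenic rats and cultured in serum-containing DMEM/F12 (10% fetal bovine serum). Vitro libraries came from passage 4 cells carried on by ordinary culture and passaging. For the Vivo libraries, cells of passage 4 were placed by injection into adipose tissue of nude mice, a strain that lacks a functional thymus, and were taken out again on day 7. A further 3 libraries of passage 4 cells, named Con, give the level of the starting culture and enter the fit, so that 6 residual degrees of freedom estimate the spread. All 9 libraries carry the GFP transgene, and the study asked how the in vivo surroundings affect the stem-cell properties of ADSCs. The labels do not say how the cells were recovered from the mouse, whether they were sorted, how old or of which sex the animals were, or whether replicate libraries stem from different animals or dishes. The p-values therefore reflect only how these libraries scatter, and that scatter may be technical.

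In fat, stromal progenitors lie around vessels and within the connective tissue sheets, held in a soft matrix of collagens, microfibrils and elastin. On plastic they spread, form actin stress fibres and lose several surface proteins that mark them in tissue. Contact with neighbouring cells acts on them through Notch receptors, which are cut on ligand binding and then switch on Hes and Hey repressors, and soluble signals act through Wnt, BMP and insulin-like growth factors. Levels are given as CPM, counts relative to library size scaled by the TMM method, in the order of replicates 1, 2 and 3. Differences are log2 fold changes of Vivo minus Vitro ± SE, with adjusted p-values from edgeR's quasi-likelihood test and Benjamini-Hochberg adjustment over all tested genes. Genes rose or fell, or were called, where the adjusted p was under 0.05. In bulk RNA, fewer cells of a type and less RNA per cell cannot be told apart.

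Of the 12364 genes 1348 were called (10.9%), of which 665 were higher in Vivo (5.38%) and 683 were lower (5.52%). The change was 2-fold or more for 868 of them. The median log2 fold change of all tested genes was 0.02, and that of the called genes was 1.35 in size. At the far end, 76 genes rose and 43 fell by at least 16-fold. The libraries did not overlap between the groups for 4356 genes (35.2%). Genes that rose summed to 33430 to 37170 CPM in the Vitro libraries, 70030 to 82750 in Vivo and 41050 to 45450 in Con. Genes that fell summed to 101400 to 114600 CPM in Vitro, 47810 to 55560 in Vivo and 95210 to 101500 in Con. These genes were picked by their difference between Vivo and Vitro, so the gap between those groups in both sums follows from the choice. The Con libraries lay nearer to Vitro than to Vivo on both sums. In the same fit 1203 genes (9.73%) were called between Vivo and Con and 4 (0.0324%) between Vitro and Con. Those comparisons share libraries with the one reported, so Con levels, where given below, are values without a test. The count of called genes was 661 without Vitro replicate 2 and 689 without Vitro replicate 3, and 550 genes (4.45%) were called in each of the 6 fits that left out 1 Vivo or Vitro library, 254 of them higher and 296 lower.

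The libraries held 17484607 to 18355242 counts, so that 3 counts correspond to 0.163 to 0.172 CPM. On log2 CPM of the 6 libraries the first principal component (60.1% of the variance) separated Vivo from Vitro, and the second (19.1%) separated the third Vivo library from the other two. Vivo replicate 3 had 3.48% of its counts in mitochondrially encoded genes, against 2.07% to 2.54% in the other 8 libraries. Its deviation from its group mean followed gene length, with Spearman's rho of -0.52 across 12340 genes, and those of Vivo replicates 1 and 2 had rho of 0.40 and 0.45. The deviations within a group cancel out, so the values of replicates 1 and 2 in part mirror that of replicate 3. The log2 fold change itself had a rho of -0.26 with gene length, which was -0.02 without Vivo replicate 3. For collagen chains, basement membrane, ribosomal protein and oxidative phosphorylation genes the results are given beside a fit that removes each library's trend with length.

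**Figure D1:**
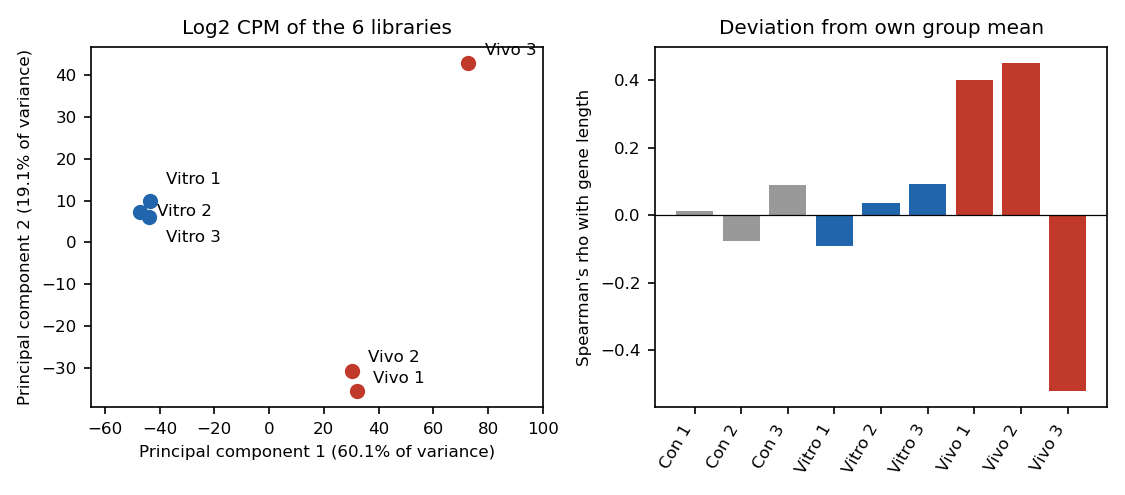
Left, the 6 Vivo and Vitro libraries on the first 2 principal components of log2 CPM, 1 point per library; Vivo (red) lies to the right of Vitro (blue), with Vivo replicate 3 above replicates 1 and 2. Right, Spearman's rho between each library's deviation from its own group mean and gene length, as bars for all 9 libraries; Vivo replicate 3 reaches -0.52 and the 6 Con and Vitro libraries stay between -0.091 and 0.093.

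Among genes with at least 5 CPM on average in the higher group that were called in each of the 6 fits without a Vivo or Vitro library, the largest rises were in matrix, Notch and complement genes that were close to silent in continued culture. Eln (ENSRNOG00000001469), which encodes elastin, the elastic protein of vessel walls and connective tissue, stood at 0.117, 0.432 and 0.319 CPM in the Vitro libraries and at 426, 366 and 767 in the Vivo libraries. Every Vivo library lay far above every Vitro library, and Con was at 2.1, 0.566 and 1.33. The rise was 10.76 ± 0.57 (adjusted p = 2.0e-05). Dpt (ENSRNOG00000002947), which encodes dermatopontin, a small matrix protein that binds decorin, stood at 0.99, 1.89 and 1.59 CPM in Vitro and 207, 236 and 364 in Vivo, a rise of 7.48 ± 0.50 (adjusted p = 7.0e-05). C7 (ENSRNOG00000061379), which takes part in the terminal, pore-forming step of complement, was at 0 in all Vitro and Con libraries and at 27.9, 14.2 and 14.5 CPM in Vivo. With 3 counts over the Vitro group as a floor this was at least 344-fold higher. The microfibril gene Mfap2 (ENSRNOG00000008257) likewise had no Vitro count. Its Vivo levels of 6.41, 6.54 and 9.31 CPM were at least 134-fold higher, and Con held 1.02, 0.0566 and 1.39. Dkk2 (ENSRNOG00000011360), which encodes a secreted modulator of Wnt receptors, had 1 count over the Vitro libraries and 7.28, 7.79 and 1.89 CPM in Vivo, a ratio of 311 (95% counting interval 55.5 to 12300).

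Other large rises were in membrane and secreted proteins. Itm2a, which encodes a membrane protein first described in cartilage and T cells, rose from 0.216–0.641 CPM to 60.8–70.5, and Olfml2b, a secreted olfactomedin-domain protein, from 0.372–1.51 to 45.2–72.7. C4b, an activator of the complement cascade, rose from 0.466–1.84 to 71.8–116 CPM, with Con at 1.19–18. Cmklr1, which encodes the receptor for the adipokine chemerin, stood at 0.349, 0.162 and 0.212 CPM in Vitro and 17.3, 15.3 and 14.3 in Vivo. Its 3 Vivo libraries were close to each other, whereas the Vitro values rest on 13 counts over the group. The rise of 5.99 ± 0.30 (adjusted p = 1.5e-05) had a small error.

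Among the same genes the largest falls included a protease, a receptor phosphatase and a smooth muscle coactivator. Genes below 5 CPM in both groups were not ranked. Pappa2 (ENSRNOG00000042860), a protease that cleaves IGF-binding protein 5 and so frees insulin-like growth factor, stood at 37.5, 30.9 and 24.8 CPM in Vitro, 0.109, 1.09 and 0.400 in Vivo and 6.08, 12.1 and 8.46 in Con. Ptprb (ENSRNOG00000055293), a receptor phosphatase known from endothelium, where it dephosphorylates the angiopoietin receptor, stood at 15.7, 14.3 and 13.5 CPM in Vitro and 0.326, 0.272 and 0.229 in Vivo, with 5.29, 4.64 and 4.63 in Con. The log2 changes were -5.84 ± 0.54 (adjusted p = 2.6e-04) and -5.68 ± 0.24 (adjusted p = 7.0e-06). Myocd (ENSRNOG00000003669), which encodes myocardin, the coactivator of smooth muscle genes, fell from 5.88, 6.48 and 5.42 CPM to 0.272, 0.436 and 0.229. Rassf4 (ENSRNOG00000013526), a Ras association domain protein, was the most abundant of these falls: it stood at 158, 85.3 and 93.1 CPM in Vitro and 6.74, 4.74 and 6.85 in Vivo, a log2 change of -4.20 ± 0.33 (adjusted p = 1.2e-04). Skeletal muscle actin Acta1 fell from 11.6–14.3 to 0.49–1.37 CPM, the tyrosine kinase gene Bmx from 2.7–8.39 to 0.0545–0.286, and the secreted signalling modulator Scube3 from 20.0–48.9 to 0.857–3.53. For these 3 genes too the groups did not overlap. Adamtsl3, Galnt18, Dcdc2, Clgn and Spata18 completed the 12, with log2 changes of -4.04, -3.69, -4.26, -4.30 and -3.68.

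By difference in CPM, again among genes called in each of those 6 fits, the changes ranked first were in matrix, complement and surface genes. Fn1 (ENSRNOG00000014288), which encodes fibronectin, the main adhesive glycoprotein laid down by cultured fibroblasts, stood at 16124, 14436 and 15085 CPM in Vitro and 7972, 8604 and 6332 in Vivo. Con, at 17424, 15020 and 16815, overlapped Vitro and not Vivo, and the log2 change was -0.99 ± 0.16 (adjusted p = 0.00404). Thbs2, which encodes the matricellular protein thrombospondin 2, stood at 8820.4, 6113 and 5386 CPM in Vitro and 2961, 2809 and 1791 in Vivo, a log2 change of -1.43 ± 0.25 (adjusted p = 0.0061). C3, the central complement component, fell from 2414, 1509.5 and 1048 CPM to 278, 190 and 98.6, while Con, at 346, 1341 and 551, lay above every Vivo library and overlapped Vitro. The complement regulator Cd55 (-1.68), the latent TGF-beta binding protein Ltbp2 (-1.35) and the BMP antagonist Grem1 (-1.42) were the other falls among the 6 so ranked. Among rises, Anpep (ENSRNOG00000014610), which encodes the surface peptidase CD13, stood at 174, 123 and 118 CPM in Vitro and 801, 1343 and 1378 in Vivo. The rise was 3.09 ± 0.32 (adjusted p = 4.4e-04), and Con, at 437, 222 and 423 CPM, lay between Vitro and Vivo. Postn, which encodes periostin, a matricellular protein of remodelling tissue, rose from 163, 212 and 290.1 CPM to 1040.5, 1223 and 1112. Enpp3, an ectonucleotidase, rose from 29.7–55.4 to 525–841 CPM. The serine protease gene Htra1 and the matricellular gene Cyr61 changed less in fold, by 0.88 and 0.83, from a high level.

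**Figure D2:**
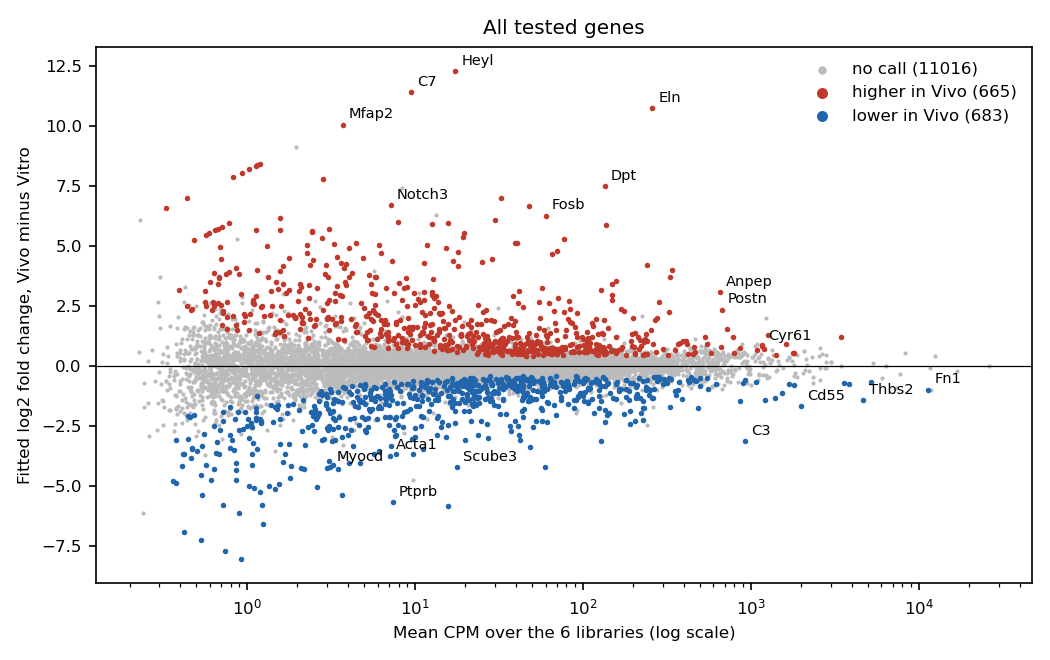
Fitted log2 fold change of Vivo minus Vitro (vertical axis) against mean CPM over the 6 libraries (horizontal log axis) for the 12364 tested genes, 1 point per gene, with 665 called higher in red and 683 called lower in blue. Eln, Heyl, C7 and Mfap2 stand at the top, with fitted changes that are not bounds where Vitro had no count, and Fn1, Thbs2 and Postn lie at the abundant end.

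The Notch pathway list had the highest median of the lists, 2.52 against 0.02 for all genes. Of 17 tested members 10 rose and 1 fell (64.7% called, against 10.9% of all genes). In the receptors, Notch3 (ENSRNOG00000004346) stood at 0.233, 0.162 and 0 CPM in Vitro, 21.7, 14.8 and 6.28 in Vivo and 2.56, 0.509 and 1.68 in Con. Notch1 stood at 1.57, 0.702 and 1.54 CPM in Vitro, 20.3, 17.3 and 11.5 in Vivo and 3.01, 2.43 and 2.49 in Con. Notch3 was lowest in Vivo replicate 3, still above every Vitro library, and the rises were 6.71 ± 0.84 (adjusted p = 0.00126) and 3.68 ± 0.34 (adjusted p = 2.6e-04). Notch2, at -0.70, did not pass, and Notch4 fell by 1.47, a call lost without Vivo replicate 1, Vivo replicate 3, Vitro replicate 2, Vitro replicate 3 or Con replicate 3 (adjusted p up to 0.124). The ligand gene Jag1 (ENSRNOG00000007443) rose from 5.18, 1.67 and 1.91 CPM to 28, 16.7 and 14.2, by 2.75 ± 0.43 (adjusted p = 0.00354). Dlk1, which encodes a membrane protein related to the Notch ligands and known to hold back fat cell formation, rose from 0.524–0.972 to 3.48–7.85 CPM. Of the transcriptional targets, Hes1 (ENSRNOG00000001720) stood at 4.14, 4.54 and 6.32 CPM in Vitro, 78.2, 125 and 175 in Vivo and 4.09, 7.07 and 4.46 in Con, a rise of 4.65 ± 0.35 (adjusted p = 1.1e-04). Heyl (ENSRNOG00000015318) had no count in the 3 Vitro libraries, and its Vivo levels of 41.9, 25.6 and 36.4 CPM were at least 629-fold higher. Con held 0.341, 0.226 and 0.174. Hey1 had 2 counts over the Vitro libraries and 1.58, 1.31 and 1.14 CPM in Vivo, a ratio of 36.7 (95% counting interval 9.79 to 308). The nuclear partners Rbpj (-0.88) and Maml2 (-1.02) did not pass. Leaving out 1 library at a time gave 8 to 10 higher and 0 to 2 lower (0 without Vitro replicate 2, Vitro replicate 3 or Con replicate 3, 2 without Vivo replicate 3).

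Hes1 is shown with its promoter because it was the most abundant target that rose and its upstream bases hold the recognition letters of RBPJ, the DNA-binding partner of cut Notch. The sequence is the 250 bases before the annotated start in RefSeq, build GRCr8, chr11:84213046-84213295, minus strand, written 5′ to 3′ in the direction of the gene, with the RBPJ letters GTGGGAA in capitals.
Hes1: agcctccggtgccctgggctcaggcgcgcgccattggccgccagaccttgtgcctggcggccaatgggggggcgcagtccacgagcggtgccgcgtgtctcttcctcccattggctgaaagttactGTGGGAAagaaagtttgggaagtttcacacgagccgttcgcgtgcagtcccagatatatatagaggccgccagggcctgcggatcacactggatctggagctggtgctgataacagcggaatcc
Either strand was searched. Of the 17 tested members 14 had a promoter entry, and these letters were found in 3 of them, Hes1, Dll1 and Lfng, against 5.27% of all 33469 promoter entries. The levels of Dll1 and Lfng are not given here. No match was found in the Heyl window, which says nothing of other positions.

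**Figure D3:**
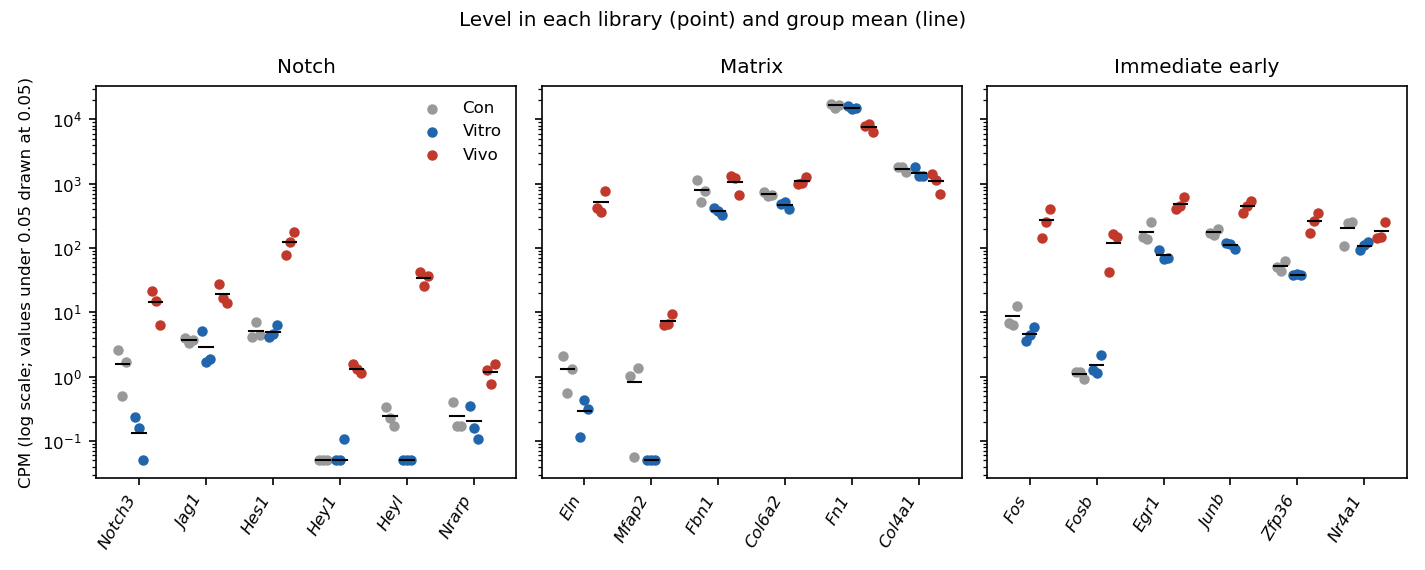
Level of 18 genes in each of the 9 libraries (points, CPM on a log axis, values under 0.05 drawn at 0.05) and their group means (lines), for Con in grey, Vitro in blue and Vivo in red. Heyl, Hes1, Eln and Fos are separated by more than 10-fold between Vitro and Vivo, whereas Col4a1 overlaps and Nr4a1 is close between them.

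Elastic fibre genes rose in part. Of 21 tested members 6 rose and 1 fell (33.3% called, against 10.9% of all genes), with a median of 0.56. Beside Eln and Mfap2, the microfibril-associated Emilin2 (ENSRNOG00000014837) rose from 1.51, 1.73 and 3.56 CPM to 75.8, 80.8 and 81.4, by 5.12 ± 0.52 (adjusted p = 4.0e-04), and Ltbp4, which anchors latent TGF-beta and assists elastic fibre assembly, from 2.68, 2.59 and 1.97 to 19.1, 18.6 and 23.5, by 3.08 ± 0.20 (adjusted p = 6.4e-05). Con stood at 3.06–13.4 CPM for Emilin2, overlapping Vitro, and at 4.89–5.5 for Ltbp4, above it. Fbn1, which encodes the main microfibril protein fibrillin-1, rose by 1.53, a call lost without Vitro replicate 2 or Vitro replicate 3 (adjusted p up to 0.065). Ltbp2 was the member that fell, from 1901–2200.5 to 699.8–842 CPM. The crosslinking enzyme genes Lox (-0.61) and Loxl1 (0.34) did not pass. Single-library omissions left 4 to 7 higher and 1 to 2 lower (2 without Vivo replicate 1, Vivo replicate 3, Vitro replicate 1 or Con replicate 1).

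Collagen chains went both ways. Of 19 tested chains 5 rose and 2 fell (36.8% called, against 10.9% of all genes), with a median of 0.20. Col5a3 (ENSRNOG00000020525), a chain of the fibril-regulating type V collagen, stood at 40.4, 48.6 and 54.1 CPM in Vitro and 789, 555 and 499.6 in Vivo, and the rise was 3.69 ± 0.22 (adjusted p = 3.7e-05). The microfibrillar type VI chains rose together: Col6a1 from 293–350.3 to 701–772 CPM, Col6a2 from 407–520.1 to 993–1272 and the low Col6a6 from 0–0.378 to 2.68–6.09. The network-forming Col8a2 fell from 288, 189 and 201 CPM to 34.9, 43.8 and 53.5, a log2 change of -2.36 ± 0.22 (adjusted p = 2.5e-04). The main fibrillar chain Col1a1 stood at 34768, 23690 and 21464 CPM in Vitro and 26216, 25936 and 26439 in Vivo, which overlapped, and had a log2 difference of -0.02 ± 0.19 (adjusted p = 0.946), with no stable sign across settings. Dropping each library in turn gave 4 to 7 higher and 1 to 3 lower (1 without Vitro replicate 1, Vitro replicate 2, Vitro replicate 3, Con replicate 1 or Con replicate 3). With gene length offsets 7 chains were higher and 3 lower, and the median was 0.39. Among 8 small leucine-rich proteoglycans, which coat collagen fibrils, 3 rose and 1 fell (50% called, against 10.9% of all genes). None of these 4 calls held in every fit that left out a library. Dcn, which encodes decorin, stood at 2957, 1753 and 1507 CPM in Vitro and 4902, 4433 and 5085 in Vivo, and its call was lost without Vitro replicate 2 or Vitro replicate 3 (adjusted p up to 0.0716).

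Basement membrane calls were all falls. None of 21 tested members rose and 5 fell (23.8% called, against 10.9% of all genes). The same 5 were called in each of the 6 fits that left out a Vivo or Vitro library. With gene length offsets the split was 1 higher and 4 lower, and the list median moved from -0.45 to -0.28. Lamb3 (ENSRNOG00000006025), a laminin chain of epithelial type, stood at 43.9, 68 and 57.1 CPM in Vitro and 19.8, 13.5 and 8.34 in Vivo. Lama5, a laminin alpha chain of vessels and epithelia, fell from 9.35–14.4 to 2.11–3.27 CPM, and the type IV collagen chain Col4a5 from 106–184 to 19.8–51.5. For Lamb3 Con, at 18.1–42.6 CPM, lay below Vitro and overlapped Vivo. For Lama5 and Col4a5 Con, at 6.08–10.6 and 88.2–127 CPM, overlapped Vitro and lay above Vivo. The abundant chain Col4a1 (-0.45) did not pass.

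Among matricellular genes and genes responsive to the mechanosensitive coactivator YAP, 6 of 20 rose and 3 fell (45% called, against 10.9% of all genes). Sparcl1, an anti-adhesive relative of SPARC, stood at 0.582, 0.27 and 0.212 CPM in Vitro and 14.7, 12 and 9.08 in Vivo. Tgfbi (ENSRNOG00000012216), an integrin-binding matrix protein induced by TGF-beta, rose from 68.6, 41.5 and 52.8 CPM to 183, 320.3 and 344, by 2.38 ± 0.36 (adjusted p = 0.003). Cyr61 and Ctgf, paired YAP-responsive genes of the same protein family, went in opposite directions: Cyr61 rose by 0.83 and Ctgf fell by 0.82, the latter call being lost without Vivo replicate 1, Vivo replicate 2 or Con replicate 3 (adjusted p up to 0.0793). Single omissions gave 6 higher in every one and 1 to 3 lower (1 without Vivo replicate 2 or Con replicate 3). In matrix proteases and their inhibitors 7 of 28 rose and 1 fell (28.6% called, against 10.9% of all genes). The fits without a library gave 3 to 8 higher (3 without Vitro replicate 2 or Vitro replicate 3, 4 without Vivo replicate 1) and 1 to 2 lower (2 without Con replicate 2). Mmp3 (ENSRNOG00000032626), which encodes stromelysin-1, stood at 4.43, 20.3 and 7.6 CPM in Vitro, 149, 59.6 and 103 in Vivo and 1.19, 4.3 and 1.62 in Con, and rose by 3.27 ± 0.61 (adjusted p = 0.00884). Tissue plasminogen activator Plat rose from 37.8–47.7 to 86–143 CPM and Adamts9 from 9.72–20.9 to 34.5–85.8. Adamts1, a protease that cuts versican, fell from 736, 761 and 741 CPM to 260.4, 276 and 134. Of 21 integrins and cadherins 1 rose and 3 fell (19% called). Fits without a library gave 0 to 1 higher (0 without Vivo replicate 1, Vivo replicate 2, Vitro replicate 2, Vitro replicate 3, Con replicate 1, Con replicate 2 or Con replicate 3) and 1 to 4 lower (1 without Vitro replicate 2 or Vitro replicate 3). The call of Itga3, an integrin chain that binds laminin, held in every fit without a library. Its levels were 49.9, 75.4 and 71.7 CPM in Vitro and 7.45, 20.1 and 11.9 in Vivo. Con, at 22.9, 34 and 18.7 CPM, lay below Vitro and overlapped Vivo.

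Immediate early genes, which are transcribed within minutes of a stimulus without new protein synthesis, held more rises than falls. Of 28 tested members 18 rose and none fell (64.3% called, against 10.9% of all genes), and the median was 1.48. Fos (ENSRNOG00000008015), a subunit of the AP-1 transcription factor, stood at 3.55, 4.38 and 5.84 CPM in Vitro, 145, 256 and 405 in Vivo and 6.88, 6.4 and 12.6 in Con, and rose by 5.87 ± 0.45 (adjusted p = 1.2e-04). Fosb (ENSRNOG00000046667), its close relative, stood at 1.28, 1.13 and 2.18 CPM in Vitro and 42.6, 164 and 149 in Vivo, with Vivo replicate 1 the lowest of its group. The partner gene Jun rose from 23–28.1 to 135–303 CPM and Junb from 98–122 to 351–541. Egr1 (ENSRNOG00000019422), a zinc finger factor induced by serum and stretch, rose from 93.7, 67 and 70.1 CPM to 403, 446 and 620.3, by 2.67 ± 0.28 (adjusted p = 4.6e-04). The feedback genes moved with them, Dusp1, a phosphatase of MAP kinases, from 101–123 to 367–783 CPM and Zfp36, which destabilises cytokine mRNA, by 2.75 on the log2 scale. For these genes Vivo replicate 1 was the lowest Vivo library in each case. Nr4a1 (0.74) and Klf6 (0.46) did not pass. Fits without a library gave 14 to 18 higher and 0 to 1 lower. The Vivo cells were taken out of tissue and the Vitro cells were not, so recovery from tissue and the days in the host cannot be told apart here.

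Egr1 and Egr2 are shown because their upstream bases hold CArG boxes, the recognition element of serum response factor, marked in capitals. Both sequences are the 250 bases before the start in RefSeq, build GRCr8, written 5′ to 3′ along the gene: chr18:26736828-26737077 on the plus strand for Egr1 and chr20:21054442-21054691 on the minus strand for Egr2.
Egr1: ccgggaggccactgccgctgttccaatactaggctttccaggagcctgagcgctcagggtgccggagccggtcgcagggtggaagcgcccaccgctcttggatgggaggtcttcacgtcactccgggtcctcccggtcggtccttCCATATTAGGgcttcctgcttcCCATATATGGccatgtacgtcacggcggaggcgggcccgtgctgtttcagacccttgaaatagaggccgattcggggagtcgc
Egr2: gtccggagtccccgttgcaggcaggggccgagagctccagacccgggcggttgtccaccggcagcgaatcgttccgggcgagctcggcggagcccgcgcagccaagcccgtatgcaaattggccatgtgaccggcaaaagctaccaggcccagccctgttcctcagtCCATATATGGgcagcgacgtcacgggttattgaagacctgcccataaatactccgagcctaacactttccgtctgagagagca
Of the 28 tested immediate early genes 20 had a promoter entry and 5 of them held a CArG box on either strand (Egr1, Egr2, Zfp36, Dusp5 and Klf6), against 1.5% of all 33469 entries. Egr1 and Zfp36 rose and Klf6 did not pass, while the levels of Egr2 and Dusp5 are not given here. Of the 28 tested contractile genes described below 19 had an entry and 2 held one (Srf and Cnn2). Only the strict form CCWWWWWWGG was counted, where W is A or T. The Acta2 window had no such match, but it holds CCCTATATGG and CCTTGTTTGG, each of which departs from that form by a single base. Windows without a match may thus still hold a looser form of the element.

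Interferon-stimulated genes form the antiviral programme switched on through STAT and IRF factors. Of 37 tested members 17 rose and none fell (45.9% called, against 10.9% of all genes). The median was 0.87. Irf7 (ENSRNOG00000017414), a transcription factor that amplifies the response, stood at 3.61, 3.73 and 4.14 CPM in Vitro, 14.6, 13.7 and 26.9 in Vivo and 2.67, 1.87 and 2.72 in Con, a rise of 2.26 ± 0.29 (adjusted p = 0.00135). Bst2, which encodes the virus-tethering protein tetherin, rose from 0.466, 0.27 and 0.319 CPM to 7.88, 3.76 and 9.25, and Oas1a, an RNA sensor enzyme, from 0.175, 0.054 and 0.159 to 4.13, 3.38 and 8.97. Vivo replicate 3 was the highest Vivo library for all 3 genes, and without it Irf7 still rose. Ifi44 rose from 4.66–6.86 to 14.3–18.6 CPM, Parp9 from 14.8–18.8 to 38.2–52.7 and the GTPase gene Igtp from 7.16–9.4 to 15.3–19.6. Omitting single libraries left 9 to 18 higher (9 without Vitro replicate 3, 11 without Vitro replicate 2) and 0 to 1 lower.

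Irf7 and Oas1a are printed for the letters GAAANNGAAA, the core of the interferon-stimulated response element, in capitals on whichever strand they were found. These are the 250 RefSeq bases before each start in build GRCr8, chr1:205800024-205800273 on the minus strand and chr12:41330216-41330465 on the plus strand, written 5′ to 3′ along the gene.
Irf7: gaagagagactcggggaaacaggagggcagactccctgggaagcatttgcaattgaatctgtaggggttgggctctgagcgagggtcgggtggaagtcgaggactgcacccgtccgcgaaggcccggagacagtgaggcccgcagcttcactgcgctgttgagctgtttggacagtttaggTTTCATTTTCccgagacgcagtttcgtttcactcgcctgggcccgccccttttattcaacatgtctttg
Oas1a: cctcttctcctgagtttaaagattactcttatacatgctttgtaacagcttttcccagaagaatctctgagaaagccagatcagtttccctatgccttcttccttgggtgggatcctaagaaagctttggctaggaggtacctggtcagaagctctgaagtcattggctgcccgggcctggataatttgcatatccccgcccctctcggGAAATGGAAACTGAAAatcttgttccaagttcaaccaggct
In Oas1a 2 matches overlap and form 1 run of capitals. A match was present in 16 of the 26 tested interferon-stimulated genes with an entry, both among genes that rose (Irf7, Oas1a, Bst2, Ifi44) and among genes that did not pass (Isg20, Parp12, Parp14), and in 3.41% of all 33469 entries.

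Antigen presentation genes were higher in part. Of 20 tested members 9 rose and 1 fell (50% called, against 10.9% of all genes), with a median of 0.79. Tapbp, which loads peptides onto class I molecules, stood at 36.1, 41.1 and 33.5 CPM in Vitro and 70.4, 78.9 and 105 in Vivo, and rose by 1.20 ± 0.16 (adjusted p = 0.00173). The immunoproteasome subunit Psmb10 rose from 7.86–10.5 to 21.2–42.6 CPM, its activator Psme2 from 35–39.2 to 61.3–91.7, and the class I gene RT1-S3 from 8.86–14.4 to 25.8–51.5. RT1 genes form a family of near-identical copies, so their counts are uncertain. The fits without a library gave 5 to 9 higher (5 without Vitro replicate 2 or Vitro replicate 3) and 0 to 1 lower (0 without Vivo replicate 2, Vitro replicate 2 or Vitro replicate 3). Ciita, the class II regulator, was the member that fell, from 0.874–1.43 to 0–0.326 CPM, and its call was lost without Vivo replicate 2, Vitro replicate 2 or Vitro replicate 3 (adjusted p up to 0.0837).

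Complement genes went both ways: 8 of 21 rose and 2 fell (47.6% called, against 10.9% of all genes). Beside C7 and C4b, the inhibitor gene Serping1 (ENSRNOG00000007457) stood at 79.3, 46.7 and 56.3 CPM in Vitro, 251, 199 and 428 in Vivo and 189, 120.1 and 248 in Con, so that Con lay above Vitro and overlapped Vivo. Clu, which encodes clusterin, rose from 15.8–17.1 to 41.7–75.9 CPM. The falls were C3 and Cd55. Of 37 chemokine and interleukin genes 7 rose and 4 fell (29.7% called). Cxcr4 (ENSRNOG00000003866), the receptor of Cxcl12, had no Vitro count, and its Vivo levels of 1.68, 2.89 and 2.23 CPM were at least 41.2-fold higher. Ackr3, which scavenges the same ligand, rose from 47.8, 46.2 and 54.1 CPM to 154, 193 and 222, by 1.94 ± 0.20 (adjusted p = 4.4e-04), and the ligand gene Cxcl12 itself fell by 0.76, a call lost without Vivo replicate 2, Vivo replicate 3, Vitro replicate 1, Vitro replicate 2, Vitro replicate 3 or Con replicate 3 (adjusted p up to 0.134). Il11, a cytokine of fibroblasts, rose from 7.4–13.9 to 47–107 CPM and Osmr, a receptor chain for oncostatin M, from 246–269.6 to 388–644. For Osmr Con, at 439, 342 and 462.5 CPM, lay above Vitro and overlapped Vivo. Ccl20, which draws CCR6-bearing lymphocytes, fell from 97.8, 95.2 and 89.6 CPM to 20.2, 15.5 and 22.4, a log2 change of -2.28 ± 0.16 (adjusted p = 7.0e-05). In the fits without a library, 4 to 7 higher (4 without Vitro replicate 2 or Vitro replicate 3) and 1 to 4 lower (1 without Vivo replicate 2, Vitro replicate 2, Vitro replicate 3 or Con replicate 3, 2 without Vitro replicate 1 or Con replicate 1) were called in this list. Of 22 NF-kB feedback and target genes 3 rose and none fell (13.6% called, near the 10.9% of all genes). Without Vitro replicate 2, Vitro replicate 3 or Con replicate 3 only 1 rose. Bcl3 was called in every fit without a library (22.2–26.7 CPM in Vitro, 38.3–55.7 in Vivo).

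**Figure D4:**
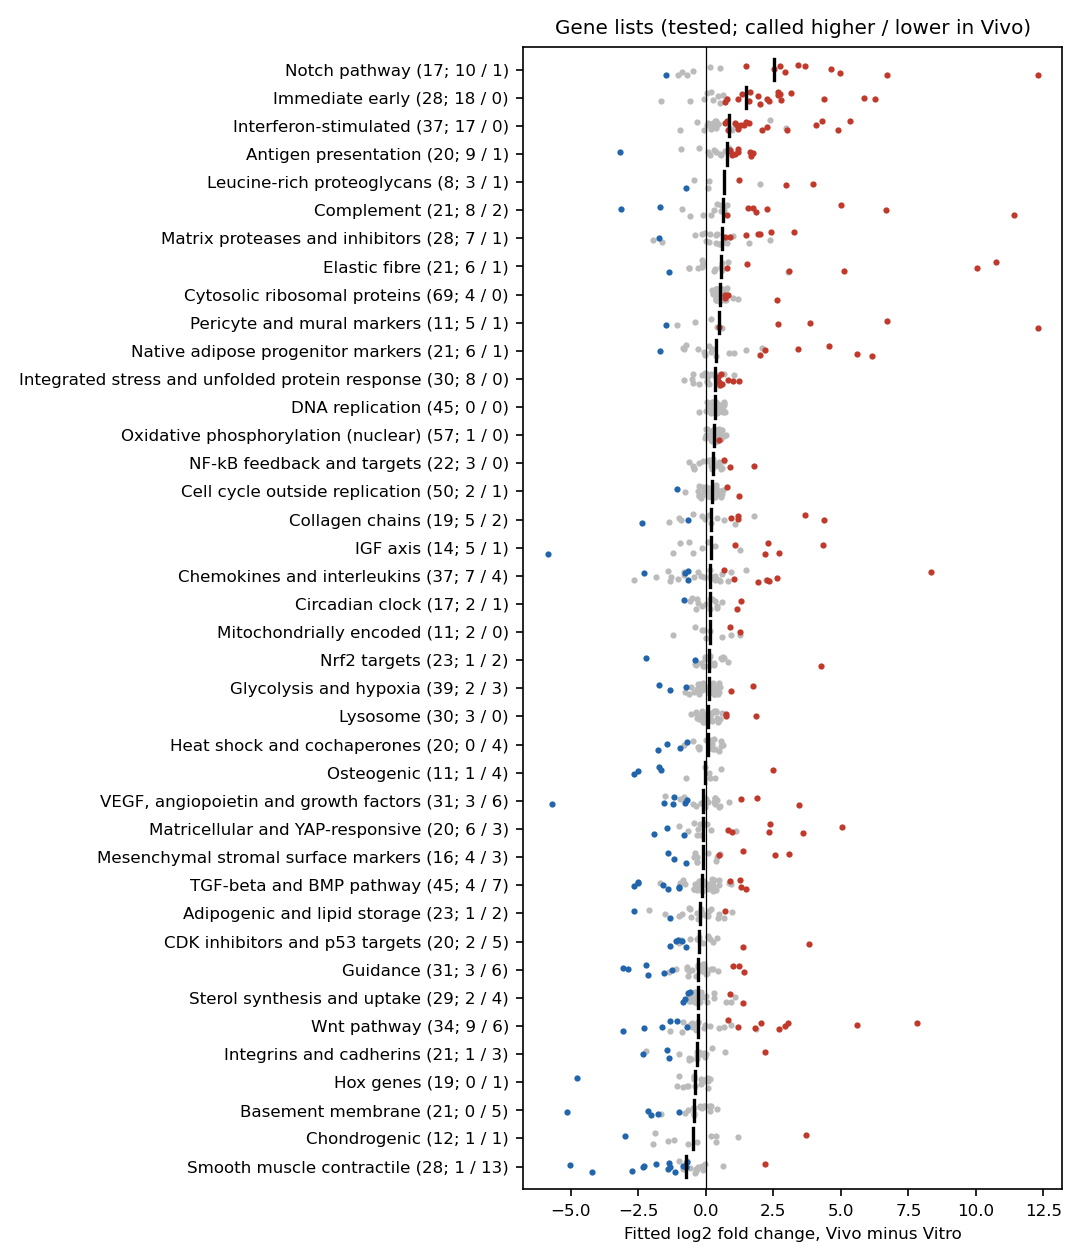
Fitted log2 fold change of Vivo minus Vitro for each tested member of the 40 gene lists, 1 point per gene, coloured red where called higher, blue where called lower and grey where not called; black ticks are list medians, and the labels give the number tested and the numbers called higher and lower. The Notch and immediate early lists lie to the right, and the contractile list lies to the left.

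Smooth muscle contractile genes, which cultured stromal cells express as they spread, held mostly falls. Of 28 tested members 13 fell and 1 rose (50% called, against 10.9% of all genes), with a median of -0.73. Cnn1 (ENSRNOG00000027736), which encodes calponin 1, stood at 417, 279 and 327 CPM in Vitro, 51.4, 55.2 and 99.4 in Vivo and 152, 262 and 199 in Con, and fell by 2.31 ± 0.30 (adjusted p = 0.00137). Myh11, the smooth muscle myosin heavy chain, fell from 111, 35.5 and 48.5 CPM to 12.9, 8.66 and 7.77, the kinase gene Mylk from 54.7–129.5 to 14.3–21.1 and the actin nucleator Lmod1 from 75.8–110.4 to 21–30.4. Vcl, which encodes the focal adhesion protein vinculin, had a log2 change of -0.84. Tagln and Myl9 fell with log2 changes of -1.15 and -1.32, and Vivo replicate 3 was the highest Vivo library for Cnn1, Tagln and Myl9; the call of Tagln was lost without Vivo replicate 2 or Vitro replicate 1 (adjusted p up to 0.0518), and that of Myl9 without Vivo replicate 1, Vivo replicate 2, Vitro replicate 1, Vitro replicate 3 or Con replicate 3 (adjusted p up to 0.0993). Acta2 stood at 1575, 847 and 1124 CPM in Vitro and 542, 483 and 1131 in Vivo, which overlapped. Its difference of -0.72 ± 0.33 (adjusted p = 0.194) did not pass, but became -1.22 without Vivo replicate 3 (adjusted p = 0.0153). Sample quality weights gave -0.96 for it (adjusted p = 0.00485). That fit gave Vivo replicate 3 a weight of 0.0942, against 0.514 to 2.61 for the other libraries, so it too largely leaves that library out. Des, which encodes the intermediate filament desmin, was the member that rose, from 2.62, 1.3 and 2.34 CPM to 9.67, 8.72 and 10.3. Leaving out libraries singly gave 1 higher in every one and 10 to 15 lower.

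In the osteogenic list 4 of 11 fell and 1 rose (45.5% called, against 10.9% of all genes), and fits without a library gave 0 to 1 higher (0 without Vivo replicate 2, Vitro replicate 1, Vitro replicate 2, Vitro replicate 3, Con replicate 1, Con replicate 2 or Con replicate 3) and 3 to 4 lower. Bmp6 stood at 73.4, 80.3 and 57 CPM in Vitro and 10.8, 14.9 and 11.5 in Vivo, and Bmp2 at 7.8, 7.51 and 6.32 in Vitro and 1.25, 1.04 and 1.09 in Vivo. Sp7, a transcription factor of osteoblasts, stood at 7.75, 6.43 and 6.85 CPM in Vitro and 2.5, 2.34 and 1.54 in Vivo. The groups did not overlap for these 3 genes. Runx2, at 0.56, did not pass with edgeR (adjusted p = 0.0922), but passed without Vivo replicate 3 (0.73, adjusted p = 0.0102). Of 12 chondrogenic genes 1 rose and 1 fell (16.7% called), both numbers being 2 without Vitro replicate 1. The cartilage master regulator Sox9 fell from 63, 37.5 and 45.6 CPM to 5.92, 4.58 and 7.77 (adjusted p = 1.6e-04), and the lubricin gene Prg4, whose product lubricates joints, rose from 0.99, 0.702 and 0.797 to 12.9, 7.25 and 12.6. In the adipogenic list 1 of 23 rose and 2 fell (13%), with 1 higher in every one and 1 to 3 lower (1 without Vivo replicate 2, Vitro replicate 1 or Vitro replicate 3) in fits without a library. Plin2, which coats small lipid droplets in many cell types, rose from 44.6, 56 and 49.7 CPM to 84.5, 82.9 and 81.1, by 0.73 ± 0.14 (adjusted p = 0.011). Lpl, which encodes lipoprotein lipase, stood at 419, 194 and 274 CPM in Vitro and 146, 106 and 101 in Vivo, and its call was lost without Vivo replicate 2, Vivo replicate 3, Vitro replicate 1 or Vitro replicate 3 (adjusted p up to 0.075). Pparg had too few counts to be tested.

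Few cell cycle genes were called. None of 45 DNA replication genes was called with edgeR, although 43 had a positive log2 change, with a median of 0.33. An unadjusted p under 0.05 was found for 6 of the 45, against 3429 of all 12364 genes. DESeq2 called 3 of the 45, against 2129 of 12364. Both were smaller shares than among all genes. Mcm3 (ENSRNOG00000012543), a subunit of the replicative helicase, stood at 43.5, 88.2 and 100 CPM in Vitro, 116, 99.6 and 106 in Vivo and 26.6, 58.7 and 29.8 in Con. Among 50 other cell cycle genes 2 rose and 1 fell (6% called, against 10.9% of all genes). None of these calls held in every fit without a library, and the proliferation marker Mki67 was at -0.11 ± 0.29 (adjusted p = 0.827). Cell cycle inhibitors and p53 targets moved more: 5 of 20 fell and 2 rose (35% called). Cdkn1a (ENSRNOG00000000521), which encodes the inhibitor p21, stood at 125, 142 and 141 CPM in Vitro, 49.5, 65.1 and 73.3 in Vivo and 60.9, 86 and 71.3 in Con, and fell by 1.12 ± 0.18 (adjusted p = 0.00382). The death receptor gene Fas fell from 35.1, 34.6 and 31.4 CPM to 13.2, 12.9 and 13.9 and Ccng1 from 291–323 to 139.9–200.5. For both, the Con libraries were below Vitro, at 22.5–24.9 and 158–214 CPM. Cdkn1c, an inhibitor linked to quiescence, rose from 1.11, 0.27 and 0.744 CPM to 7.39, 11.5 and 10.9, and the kinase gene Plk2 from 62.2–79.1 to 149.8–209. Cdkn2a did not pass (-0.31). Fits without a library gave 2 higher in every one and 3 to 6 lower (3 without Vitro replicate 2 or Vitro replicate 3).

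**Figure D5:**
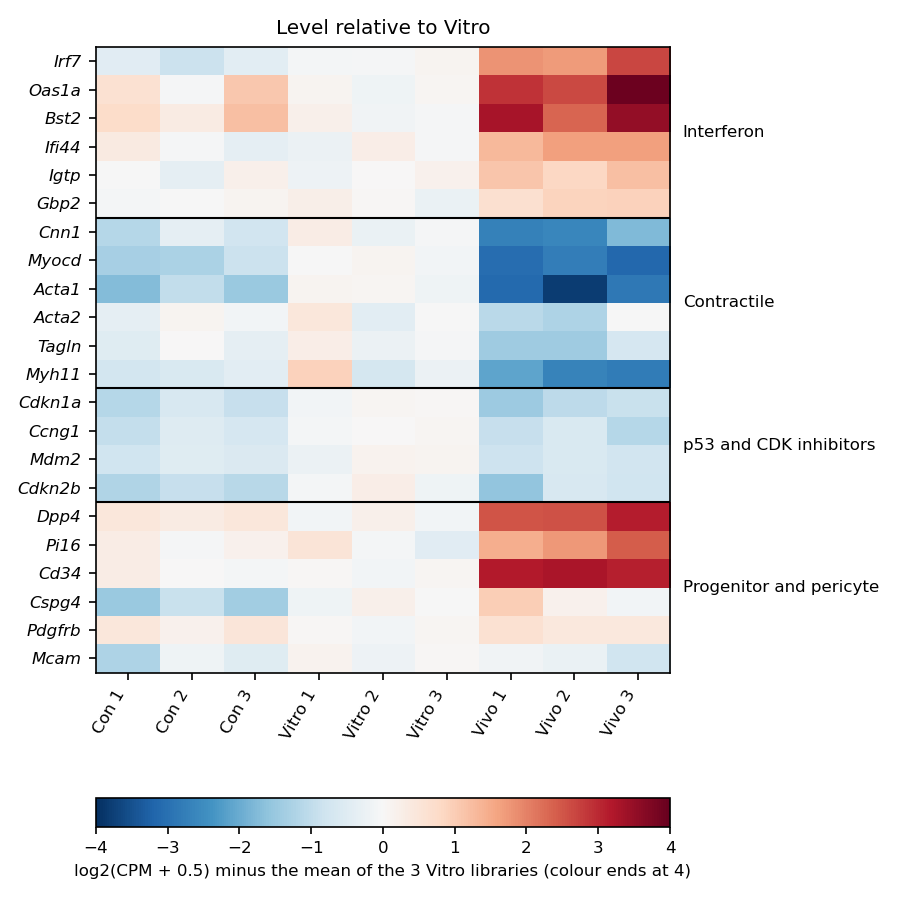
Colour map of log2(CPM + 0.5) in each of the 9 libraries (columns) relative to the mean of the 3 Vitro libraries, for 22 genes (rows) in 4 groups, with red above and blue below Vitro and the colour scale ending at 4. Interferon genes are red and contractile genes blue in the Vivo columns, apart from Acta2 in Vivo replicate 3. Cdkn1a falls from 125 to 142 CPM to 49.5 to 73.3, and Cspg4, Pdgfrb and Mcam have paler Vivo columns than Dpp4, Pi16 and Cd34.

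Stress and metabolic lists differed in their share of calls. Of 30 genes of the integrated stress and unfolded protein response 8 rose (26.7%, against 10.9% of all genes), and fits without a library gave 1 to 9 higher (1 without Vitro replicate 3, 2 without Vitro replicate 2, 4 without Vivo replicate 1, Vivo replicate 2 or Con replicate 3) and 0 to 2 lower. The growth arrest gene Ppp1r15a was the one called throughout, with 73.2, 71.7 and 71.9 CPM in Vitro and 115, 132 and 190 in Vivo. Con, at 105, 106 and 105 CPM, lay between Vitro and Vivo. Of 20 heat shock genes 4 fell (20.0%) and none rose. Cryab (ENSRNOG00000010524), a small heat shock protein that binds desmin and actin, stood at 352, 296 and 406 CPM in Vitro and 57.1, 93.2 and 158 in Vivo, a log2 change of -1.78 ± 0.31 (adjusted p = 0.00599). In glycolysis and hypoxia genes 2 of 39 rose and 3 fell (12.8%), with 1 to 4 higher (1 without Vivo replicate 1, Vitro replicate 2, Vitro replicate 3, Con replicate 1 or Con replicate 3, 4 without Vivo replicate 3) and 2 to 3 lower when a library was left out. Car9, a carbonic anhydrase induced by low oxygen, fell from 23.4, 26.2 and 26.9 CPM to 6.09, 6.81 and 10.2, and Adm, the adrenomedullin gene, rose from 236–280.2 to 439.5–598. Sterol synthesis held 4 falls and 2 rises in 29 genes (20.7%), and 0 to 1 higher (0 without Vivo replicate 2, Vitro replicate 2, Vitro replicate 3, Con replicate 1 or Con replicate 3, 1 without Vivo replicate 1, Vivo replicate 3, Vitro replicate 1 or Con replicate 2) and 1 to 5 lower (1 without Vitro replicate 2 or Vitro replicate 3, 2 without Vivo replicate 1, Vitro replicate 1, Con replicate 1, Con replicate 2 or Con replicate 3) without a library. The fall of Sc5d, a late enzyme, was called in every fit without a library (74.4–102 CPM in Vitro, 46.8–52.3 in Vivo). All 69 tested cytosolic ribosomal protein genes had a positive log2 change with a median of 0.52, but only 4 were called (5.8%), and the median was 0.26 with gene length offsets. The 57 nuclear oxidative phosphorylation genes, with 1 call, had medians of 0.32 and 0.09 in the same 2 fits. Single-library fits called 0 to 5 higher (0 without Vitro replicate 1 or Vitro replicate 3, 2 without Vitro replicate 2, Con replicate 1, Con replicate 2 or Con replicate 3) and 0 lower in every one among the ribosomal protein genes, and the single oxidative phosphorylation call was made without Vivo replicate 3 and in no other such fit. Ribosomal protein genes have many pseudogene copies, which makes their counts uncertain. Positional Hox genes held 1 fall and no rise in 19 (5.26% called). Fits without a library gave 0 higher in every one and 0 to 1 lower (0 without Vivo replicate 1, Vivo replicate 2, Vivo replicate 3, Vitro replicate 2, Vitro replicate 3 or Con replicate 3). Clock genes held 2 rises and 1 fall in 17 (17.6% called). For these the same fits gave 0 to 3 higher (0 without Vitro replicate 2 or Vitro replicate 3, 1 without Vivo replicate 2 or Vitro replicate 1) and 1 lower in every one.

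Markers of progenitors in native fat went both ways. Of 21 tested markers, 6 rose and 1 fell (33.3% called, against 10.9% of all genes). All 7 were also called in each fit that left out a Vivo or Vitro library. Cd34 (ENSRNOG00000045558), a sialomucin that ADSCs carry in tissue and lose on plastic, stood at 0.291, 0.216 and 0.319 CPM in Vitro, 6.52, 6.97 and 6.23 in Vivo and 0.455, 0.283 and 0.232 in Con, a rise of 4.54 ± 0.34 (adjusted p = 1.1e-04). Pi16, a marker of fibroblast progenitors of the interstitium, rose from 5.18, 3.29 and 2.44 CPM to 10.3, 12.9 and 20.7, and Dpp4, which marks the same population, had 2 Vitro counts in all and 2.55, 2.62 and 4.17 CPM in Vivo, a ratio of 84.4 (95% counting interval 23 to 702). Wnt2 and the hyaluronan synthase Has1 rose by 5.61 and 3.41, and Igfbp6, a binding protein for IGF-II, rose from 31.4–35.4 to 92–251 CPM. The marker that fell, Cd55, was the most abundant of the 7, at 3219.5, 2740.5 and 3144 CPM in Vitro and 1328, 715 and 802 in Vivo. Without Vivo replicate 3 the list held 2 falls. Of 16 mesenchymal stromal surface markers 4 rose and 3 fell (43.8% called, against 10.9% of all genes). Eng, which encodes CD105, rose from 48.1, 51.3 and 51.8 CPM to 100.2, 121 and 172. The tetraspanins Cd9 and Cd81 fell from 197–201 to 114–122 CPM and from 511–627 to 176–263. Thy1 (-0.34), Cd44 (-0.33) and Pdgfra (0.41), markers that define cultured ADSCs, did not pass; Thy1 passed without Vivo replicate 3 (-0.62, adjusted p = 0.00439). Of 11 pericyte and mural markers 5 rose and 1 fell (54.5% called, against 10.9% of all genes). Notch3 and Heyl are 2 of the 5 and are also held by the Notch list. The fall was Ndufa4l2, which encodes a mitochondrial protein and is used as a pericyte marker, and which stood at 90.3, 62.5 and 53.9 CPM in Vitro and 21.1, 17.8 and 35.9 in Vivo, a log2 change of -1.47 ± 0.29 (adjusted p = 0.0112). The potassium channel subunits Abcc9 and Kcnj8, which form 1 channel in pericytes, rose from 1.62–4.25 to 15.1–23.8 CPM and from 0.27–0.874 to 4.79–11.4, whereas Cspg4 (0.42) and Mcam (-0.39) did not pass.

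Secreted signals changed member by member. In the IGF axis 5 of 14 rose and 1 fell (42.9% called, against 10.9% of all genes). Fits without a library gave 4 to 5 higher and 1 to 3 lower (3 without Vivo replicate 1 or Vivo replicate 3). Igfbp5 (ENSRNOG00000017206), a matrix-bound IGF-binding protein and the substrate of Pappa2, stood at 2.56, 1.89 and 2.6 CPM in Vitro and 72.2, 38.4 and 33.1 in Vivo, a rise of 4.34 ± 0.36 (adjusted p = 1.6e-04) beside the fall of the protease. Igfbp4 rose from 21.9–23.2 to 97.6–125 CPM, and Igf1 itself from 0.874, 0.81 and 0.956 to 3.26, 5.78 and 8.28. In the Wnt pathway 9 of 34 rose and 6 fell (44.1% called, against 10.9% of all genes), and the list median was -0.30. Of these calls 8 held in each fit that left out a Vivo or Vitro library. The ligands and secreted modulators Wnt2, Wnt2b, Wnt4, Wnt11, Dkk2, Sfrp2 and Sfrp4 were among the rises. Sfrp2, a secreted frizzled-related protein, rose from 18.5, 34.7 and 12 CPM to 210, 97.2 and 122 and the ligand Wnt11 from 1.22, 1.35 and 1.01 to 11.2, 8.77 and 9.82. Nkd2 (ENSRNOG00000016103), an intracellular inhibitor of the pathway, fell from 104, 56.7 and 67.3 CPM to 8.53, 9.26 and 9.31, a log2 change of -3.07 ± 0.23 (adjusted p = 1.1e-04), and the ligand enhancer Rspo1 and the receptor Fzd7 had log2 changes of -1.62 and -1.31. The pathway's feedback target Axin2 did not pass (-0.51). The fits without a library gave 5 to 10 higher (5 without Vitro replicate 2 or Vitro replicate 3) and 3 to 6 lower (3 without Vitro replicate 2) in this list.

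In the TGF-beta and BMP list 7 of 45 fell and 4 rose (24.4% called, against 10.9% of all genes). Fits without a library gave 2 to 5 higher (2 without Vivo replicate 1, Vivo replicate 2, Vitro replicate 2, Vitro replicate 3 or Con replicate 3) and 6 to 9 lower. Ligands and antagonists fell side by side: Bmp3 stood at 78.3, 47 and 61.8 CPM in Vitro and 9.62, 12.4 and 11 in Vivo, and the antagonist Chrdl1 at 112, 113 and 144 in Vitro and 47.1, 45.5 and 31.2 in Vivo, while Grem1 had a log2 change of -1.42. Bmp1, a protease that trims procollagens, rose from 123–139 to 345–412 CPM, and Id2, a direct BMP target, from 34–37.2 to 65.8–121. Of 31 angiogenic and other growth factor genes 3 rose and 6 fell (29% called), with 1 to 3 higher (1 without Vitro replicate 1 or Vitro replicate 2) and 3 to 7 lower (3 without Vitro replicate 2 or Vitro replicate 3) when a library was left out. Kdr, which encodes VEGF receptor 2, rose from 1.4, 1.3 and 1.33 CPM to 12.2, 17.5 and 14.6, by 3.46 ± 0.30 (adjusted p = 1.8e-04), and Nrg1, an ErbB ligand, fell from 24.3–27.2 to 7.83–10.4. Vegfa was at 0.35 and did not pass with edgeR (adjusted p = 0.124), but passed without Vivo replicate 3 (0.41, adjusted p = 0.0449). Of 31 guidance genes 3 rose and 6 fell (29% called). Fits without a library gave 1 to 3 higher (1 without Vivo replicate 1, Vitro replicate 2 or Vitro replicate 3) and 3 to 7 lower (3 without Vitro replicate 1). Among the falls were the netrin receptor genes Unc5c (9.26–15.5 to 2.00–3.6 CPM) and Unc5b (471–521 to 187–239).

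Markers of other cell types differed widely in summed level, and some changed. Summed macrophage markers stood at 23.0 to 28.2 CPM in Vitro and 28.1 to 35.8 in Vivo, most of it Cd14, which stromal cells also express, and 3 of the 19 markers in the table, Cd163, C1qb and Marco, had no count in the 6 libraries. The myeloid genes Spi1 and Tyrobp had 0 counts over the Vitro libraries and 29 and 10 over the Vivo libraries. Lymphocyte markers summed to 0.486 to 0.932 CPM in Vitro and 0.599 to 5.08 in Vivo, with 6 of 15, among them Cd3e, Cd3d, Cd3g and Ms4a1, at 0 in the 6 libraries. Gzmb made up most of the sum in Vivo replicates 1 and 3, with 1.09, 0.109 and 3.94 CPM in the Vivo libraries, and did not pass with edgeR (adjusted p = 0.0655). Endothelial markers summed to 46.2 to 54.2 CPM in Vitro and 45.4 to 58.1 in Vivo, with Cldn5 at 0, so these sums overlapped while 2 of the markers, Kdr and Ptprb, rose and fell. All 6 tested mesothelial markers were called, 4 higher and 2 lower, in a list that summed to 167 to 383 CPM in Vitro and 161 to 241 in Vivo. Fits without a library called 1 to 4 higher (1 without Vitro replicate 1 or Vitro replicate 3, 2 without Vivo replicate 2 or Vitro replicate 2) and 0 to 2 lower (0 without Vivo replicate 1 or Vitro replicate 2, 1 without Vivo replicate 2, Vivo replicate 3, Vitro replicate 1, Vitro replicate 3, Con replicate 1 or Con replicate 3). Msln (ENSRNOG00000019445), which encodes mesothelin, rose from 15.7, 18.4 and 18.1 CPM to 90.4, 104 and 131, by 2.64 ± 0.18 (adjusted p = 7.0e-05), while Krt7 fell from 142, 353 and 349 to 55.4, 64.1 and 92.4, a call lost without Vivo replicate 1, Vivo replicate 2, Vitro replicate 2 or Vitro replicate 3 (adjusted p up to 0.0957). Skeletal muscle markers were at 21.4 to 27.1 CPM in Vitro and 6.25 to 10.5 in Vivo, and Schwann cell and neuron markers at 387 to 490 and 182 to 226, of which Stmn2 and S100b fell with log2 changes of -1.88 and -1.99. Summed stromal markers were at 56600 to 80200 CPM in Vitro and 63900 to 65400 in Vivo and were by far the highest of the marker sums. The reads were aligned to the rat genome, so mouse host cells would be counted only as far as their reads align there. The part of such cells in the results was not tested. This holds for interferon, complement and antigen presentation genes as for the rises of Notch, elastic fibre, progenitor and pericyte genes.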

How the data were processed

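RNA of 9 rat libraries was taken up in Trizol and sequenced after a stranded mRNA preparation, per the labels' protocols. Reads were aligned with HISAT2 to Rnor_6.0, per the submitters' processing notes; the counting tool and strand setting were not given in the sources used here. The authors deposited raw read counts and FPKM values per gene for each library. Without a known strand setting, reads of a gene and an antisense partner cannot be told apart.

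Counts of 21923 genes were filtered by expression (12364 kept), scaled by TMM and fitted with edgeR 4.0.16 quasi-likelihood models in R 4.3.3, two-sided, over all 3 groups. The SE is the log2 fold change divided by the root of F. DESeq2 1.42.0, limma 3.58.1 and the deposited FPKM (log2 with a pseudocount of 1) served as alternatives. The fit was tested on data simulated with the same spread for every gene and with no outlying library or length trend. It called 47 of 100 genes changed 2-fold, 98 of 100 changed 4-fold and 3 of 12164 unchanged genes. Many true 2-fold changes may thus not pass. Counting intervals are 95% and, like the floor of 3 counts over the group, cover counting error only.

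Named genes were up to 12 rises and 12 falls by fold and 6 and 6 by CPM difference among genes of at least 5 CPM in the higher group called in all 6 fits without a Vivo or Vitro library, up to 4 called members per list and 24 fixed genes. Other genes named, such as Hey1, Jun, Zfp36, Oas1a, Bst2, Myh11, Cdkn1c, Dpp4 and Tagln, were chosen after their values were seen. Members and lists were chosen with earlier results of these data known. Promoters are RefSeq sequences of build GRCr8, matched by symbol; no coordinates of the deposited build are used. Some results on single genes are not reported here.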

Additional observations from a re-analysis of the deposited data

How the results depend on the processing

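The 1348 called genes (665 higher, 683 lower) became 2129 (1041 and 1088) with DESeq2 and 2852 (1442 and 1410) with sample quality weights. Those weights were 0.0942 for Vivo replicate 3 and 0.514 to 2.61 for the other libraries. The count was 861 (423 and 438) with the 6 Vivo and Vitro libraries alone and 270 (157 and 113) against a minimum change of 2-fold. Fits without 1 library called 661 to 1660 genes, 302 to 734 higher and 356 to 926 lower, the fewest without Vitro replicate 2 and the most without Vivo replicate 3. RLE size factors gave 1353, no low-count filter 1361, a filter of 1 CPM in 3 libraries 1289, gene length offsets 1603 and log2(FPKM + 1) 1190. No gene called in both the reported fit and any of these was called in opposite directions. Among named genes, Col1a1, which did not pass, changed sign with sample quality weights (0.13), gene length offsets (0.13), log2(FPKM + 1) (0.0116) and without Vitro replicate 1, the range over fits without 1 library being -0.16 to 0.21. Mki67, which did not pass either, did so with gene length offsets (0.24) and without Vivo replicate 3 (0.10) or Vitro replicate 3 (0.08), with a range of -0.33 to 0.10. The cause was not tested.

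Same-numbered Vivo and Vitro libraries deviated from their group means with correlations of 0.025, 0.11 and -0.015 across genes. Differently numbered libraries had -0.087 to 0.039. Such values cannot decide whether the numbers pair the samples, which the labels do not say. With the replicate number as a block 1243 genes were called, 612 higher and 631 lower, of which 1122 were also called without it.

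Depth limits genes near 3 counts, and 3 libraries a group limit all of them. Vivo replicate 3 differs in its trend with gene length, and the recovery of Vivo cells from tissue cannot be told apart from the host.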

Other observations

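Outside the lists, further genes called in each fit that left out a Vivo or Vitro library were chosen after their values were seen. Trh, the precursor of thyrotropin-releasing hormone, stood at 0.117, 0.702 and 0.638 CPM in Vitro and 37, 19.2 and 36.8 in Vivo, Agtr1a, the angiotensin II receptor, at 11.4, 4.86 and 9.46 in Vitro and 51.1, 64.5 and 108 in Vivo. Ednra, an endothelin receptor, stood at 0.466, 0.108 and 0.159 CPM in Vitro and 9.78, 10.0 and 6.34 in Vivo. The groups did not overlap for any of these 3 genes. Apoe, which encodes the lipid carrier apolipoprotein E, rose from 4.31, 2.00 and 5.31 CPM to 139, 92 and 219, and Cyp26b1, which degrades retinoic acid, from 1.22, 1.73 and 2.76 to 50.4, 25.5 and 26.6. The secreted matrix gene Cthrc1 rose from 2.11–9.44 to 117–157 CPM.

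Genes that fell were chosen in the same way. Calca, the calcitonin and CGRP gene, stood at 2.21, 2.92 and 2.28 CPM in Vitro, 0.0544, 0 and 0 in Vivo and 0.625, 0.0566 and 1.33 in Con. Prl8a9 and Prl7a3, placental members of the prolactin family in rodents, fell from 14.5–24 to 1.58–2.34 CPM and from 1.05–3.13 to 0–0.164; as members of a family of close copies their counts are uncertain. Il1rn, the natural antagonist of the interleukin 1 receptor, fell from 325, 192 and 179 CPM to 29.8, 27.5 and 21.6, and Ptgs1, the constitutive cyclooxygenase, from 219–228 to 36.5–70.7.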
